A study of Mus musculus with 6 samples.

Results

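The tRNA fragments of normal mouse heart were described from the 3 control libraries of a series of 6. These 3 were chosen by their titles, which read L/L with no cre. Each library came from the heart of a separate C57BL/6 mouse whose Elac2 gene carried a loxP-flanked exon. No cre was present, so the exon was not targeted for removal. In the other 3 mice of the series, not used here, cre was driven by the muscle creatine kinase promoter. The titles name the controls L/L while their genotype label reads Elac2 +/+, and the labels give no age. The heart label could not be checked against markers, because the tables held tRNA fragments and no mRNA. Total RNA was prepared from crude hearts, so all cell types of the heart are mixed, and fewer cells of a type and less RNA per cell cannot be told apart. Libraries were selected for RNA of 15 to 35 nt. The same 1336 sequences were counted in each heart. There was 1 group, so values are given with their spread over 3 hearts and no test was made.

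A tRNA is transcribed as a precursor by RNA polymerase III, which stops in a run of T. RNase P then trims the 5′ end, and RNase Z, the product of Elac2, cuts off the 3′ trailer. CCA is added to the new 3′ end, and the amino acid is later attached there. Mature tRNAs can be cut further, often in or near the anticodon loop, which leaves 5′ and 3′ pieces known as tRNA fragments. The sequence names divide these pieces into 5′ fragments of the mature tRNA (tRF_5, 554 sequences), trailers (tRF_1, 435 sequences) and fragments ending in CCA (tRF_3, 347 sequences).

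The sequences below led groups among the 6 largest of 5′ fragments sharing their first 15 nt. They are given as deposited, 5′ to 3′, with T for U. Capitals mark bases of the 7-nt anticodon loop, so a sequence without capitals ended before the loop. The tRNA type is that of the group, read from the anticodon of longer members. The sequences shown ended before or within the anticodon and do not give it in full themselves.
tRF_5_284 (glycine GCC): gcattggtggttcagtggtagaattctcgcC
tRF_5_291 (histidine GTG): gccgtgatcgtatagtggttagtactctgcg
tRF_5_335 (valine CAC): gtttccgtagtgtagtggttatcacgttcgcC
tRF_5_245 (glutamate TTC): tcccacatggtctagcggttaggattcct
tRF_5_416 (lysine CTT): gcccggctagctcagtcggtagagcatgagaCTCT

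The leading trailers are shown next because they led their class or differed most between hearts. Capitals mark the final run of T.
tRF_1_64: tcggaggctttgTTTT
tRF_1_28: tcggaggctttgTTT
tRF_1_93: tcggaggctttgTTTTT
tRF_1_177: gtggtgtgctagttaaTTTT
tRF_1_363: gccctctttccgtgtggatttaagaaTTT
tRF_1_44: agcaggctcactcTTT
tRF_1_42: acgtgtgcgatcTTTT

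Leading CCA-ending fragments are shown because most were 18 or 22 nt long; tRF_3_37 has 17 nt. Capitals mark the added CCA. These fragments hold no anticodon. The type in brackets was taken from 5′ sequences that pair with their end or hold them, so its anticodon is less sure than its amino acid.
tRF_3_71 (leucine CAG): atcccacttctgacaCCA
tRF_3_183 (leucine CAG): tcgaatcccacttctgacaCCA
tRF_3_182 (leucine CAG): tcgaatcccactcctgacaCCA
tRF_3_200 (valine TAC): tcgagccccagtggaaccaCCA
tRF_3_211 (glycine): tcgattcccggccaatgcaCCA
tRF_3_37 (valine CAC): accgggcggaaacaCCA
tRF_3_97 (type not assigned): ttccggctcgaaggaCCA

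Nearly all tRF counts of control hearts came from 5′ fragments. Summed over all sequences, the tRF count was 235046, 773252 and 378924 in control hearts 1, 2 and 3. This total is not the sequencing depth, which is unknown here. 5′ fragments took 94.4%, 99.3% and 98.2% of it. Trailers took 2.62% (95% Clopper-Pearson interval 2.56 to 2.69), 0.358% (0.345 to 0.371) and 1.12% (1.08 to 1.15). CCA-ending fragments took 2.96% (2.90 to 3.03), 0.303% (0.291 to 0.316) and 0.695% (0.669 to 0.722). Control heart 1 was the highest and control heart 2 the lowest in both small classes, and the intervals, which cover counting error only, did not overlap. In counts the 3 hearts lay closer, at 6164, 2767 and 4235 for trailers and 6969, 2346 and 2633 for CCA-ending fragments, whereas the 5′ count ran from 221913 to 768139. Without control heart 1 the mean share was 0.738% for trailers and 0.499% for CCA-ending fragments, against 1.37% ± 1.15 and 1.32% ± 1.44 (SD, n = 3) with it.

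**Figure D1:**
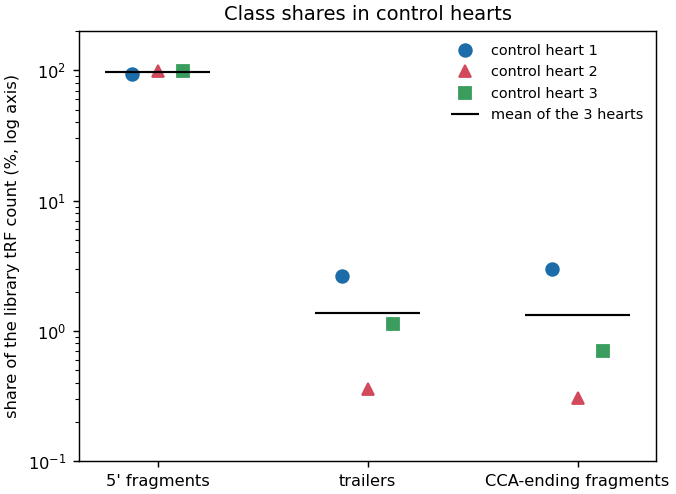
Share of the library tRF count (percent, log axis) held by each class in the 3 control hearts, with the mean as a bar. The 5′ fragments lie between 94.4% and 99.3%, and control heart 1 is highest for trailers and CCA-ending fragments.

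Most sequences were rare. At least 1 count was found for 851, 666 and 705 sequences, and 439 were found in all 3 hearts. Another 224 were found in 2 hearts and 457 in 1 heart, and the rest in none. A count of 0 allows a share of up to 0.00128%, 0.000388% and 0.000792% in hearts 1, 2 and 3. The 439 shared sequences held 99.8% of all counts, and no sequence seen in a single heart had more than 10 counts. The library with the fewest tRF counts showed the most sequences. When the hearts were thinned to 235046 counts each, 851, 472 and 608 sequences were found. By abundance, 31 sequences with a mean of at least 1000 counts per 1000000 tRF counts (CPM) held 95.5% of the tRF count, and 557 sequences with 1 to 10 CPM held 0.193%.

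A single glycine fragment accounted for about every other count. tRF_5_284, the 31-nt 5′ fragment that led the glycine GCC family, had 117289, 383836 and 212360 counts. That was 49.9%, 49.6% and 56.0% of the tRF count, with a highest-to-lowest ratio of 1.13, and it ranked first in every heart. It ended before the anticodon. The longer tRF_5_412 continues it to anticodon GCC and the longer tRF_5_411 to CCC, so its counts cannot be divided between these glycine tRNAs. The number of sequences needed to reach 50% of the tRF count was 2, 2 and 1. To reach 90% took 16, 4 and 8 sequences, and to reach 99% took 187, 59 and 105. The inverse Simpson number, the number of equally abundant sequences that would give the same concentration, was 3.27, 2.93 and 2.88. The hearts were alike in the weight of their first sequence and differed in the length of the tail, which was longest in control heart 1.

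Shorter forms in the same glycine family were also abundant. tRF_5_195, 28 nt long, took 22.8%, 10.3% and 14.1%. tRF_5_178, 27 nt long, took 5.28%, 1.04% and 1.69%, and tRF_5_254, 30 nt long, took 3.47%, 0.816% and 1.44%. All of these were highest in control heart 1 and lowest in control heart 2. The longer tRF_5_318 (32 nt) took 1.31%, 0.395% and 0.406%. The 36-nt tRF_5_435 was among the steadiest sequences, at 0.592%, 0.575% and 0.469%. Over its 41 length and sequence variants, from 18 to 58 nt, this glycine family made up 92.6%, 65.8% and 81.9% of the 5′ count.

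One abundant glycine sequence carried a last base that differed from its neighbour. The 3 sequences are given with the last base in capitals.
tRF_5_178: gcattggtggttcagtggtagaattcT
tRF_5_195: gcattggtggttcagtggtagaattctC
tRF_5_196: gcattggtggttcagtggtagaattctT
Counting from 1 at the 5′ end, tRF_5_196 differs from tRF_5_195 by C28T, and it equals tRF_5_178 with a T added. It had 3056, 13397 and 20190 counts, or 5.70%, 16.8% and 37.8% of tRF_5_195 in the same heart. The same substitution inside the 31-nt form, tRF_5_285, had 111, 349 and 177 counts, which is 0.0946%, 0.0909% and 0.0833% of tRF_5_284. The share with the changed last base thus varied between hearts, while the internal change, given for tRF_5_285 only, stayed at a similar level. The bases of tRF_5_196 are also the first 28 of tRF_5_285, and the source of its last T was not tested. A proline fragment of 29 nt showed a last-base change as well: tRF_5_231 differs from tRF_5_232 by G29A and had 38, 160 and 291 counts, or 20.5%, 23.3% and 31.9% of it. Of 14 such last-base pairs among 5′ fragments, these were the 2 whose rarer form reached 50 counts over the 3 hearts, and they were singled out after their values were seen.

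Glutamate TTC gave 2 families, led by tRF_5_245 and tRF_5_246. tRF_5_245 took 0.832%, 0.477% and 0.996% and tRF_5_246 took 0.612%, 0.318% and 0.663%.

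The 5′ fragments fell into 52 groups by tRNA, and those described next were far smaller than glycine GCC. The histidine GTG group of tRF_5_291 made up 0.459%, 1.41% and 1.84% of the 5′ count and was lowest in control heart 1. The group typed valine CAC made up 1.17%, 0.872% and 1.29%. Its longer sequence tRF_5_498 reads anticodon AAC, so fragments of valine AAC cannot be told apart in it where they end before the anticodon. Lysine CTT made up 1.45%, 0.533% and 0.897%, and proline TGG 0.448%, 0.288% and 0.994%. Aspartate GTC, lysine TTT and serine GCT each stayed below 0.1% in every heart. Sequences whose anticodon could not be read were 124 of 554, with 0.158%, 0.132% and 0.223% of the 5′ count. The order of the 52 groups was similar across hearts, with Spearman's rho of 0.929, 0.946 and 0.951 for the 3 pairs, given as a description since the groups share libraries.

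**Figure D2:**
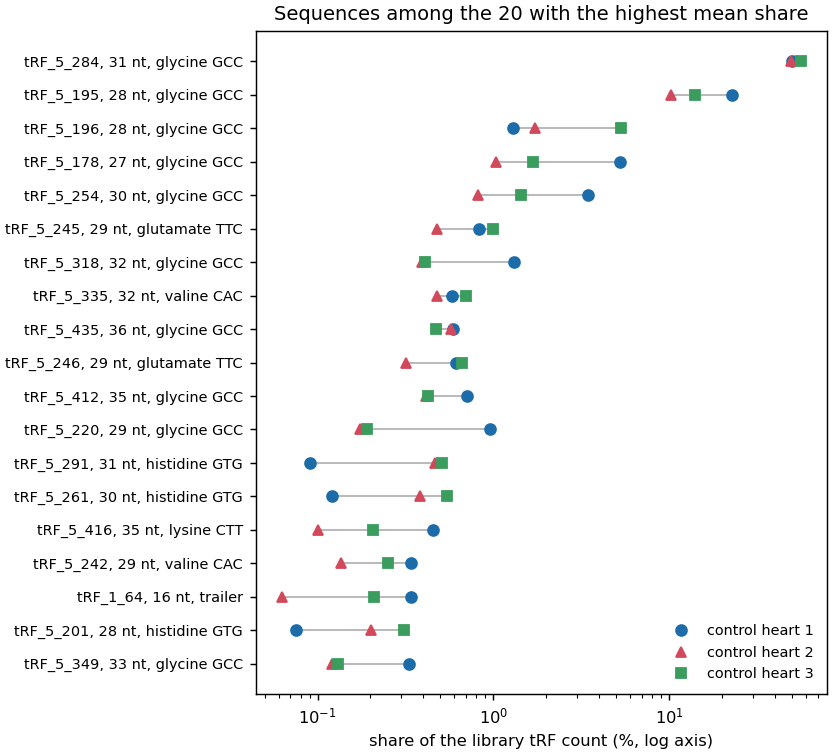
Share of the library tRF count (percent, log axis) of sequences among the 20 with the highest mean share, 1 symbol per control heart and a grey line over their range. tRF_5_284 lies between 49.6% and 56.0%, above all others shown.

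The valine and histidine tRNAs could be placed on the GRCm38 assembly, the assembly of mm10. tRF_5_335 (chr13:23446183-23446214, minus strand) and the CCA-ending tRF_3_37 (chr13:23446142-23446155 before the CCA) both match the valine gene n-TVcac9 of RefSeq, at its first and its last bases. tRF_5_335 had 1362, 3705 and 2655 counts and tRF_3_37 had 611, 83 and 111. As shares of the tRF count, the 5′ piece took 0.579%, 0.479% and 0.701%, and the CCA-ending piece 0.260%, 0.0107% and 0.0293%, so the 5′ piece was the steadier of the pair. tRF_5_291 matches bases 1 to 31 of the histidine gene n-THgtg7 (chr3:96452495-96452525, plus strand) and had 213, 3598 and 1922 counts. All 31 listed 5′ sequences that hold the first 12 bases of this tRNA began at its first base. The list held none with a base before it, so an earlier start could not be seen. RefSeq genes whose sequence was at hand numbered 19 of 408, and a match does not trace a fragment to 1 gene, since near-identical tRNA copies give the same reads. In all 76 matched 5′ fragments the first base was the gene's first base, and 66 of 66 matched CCA-ending fragments ended at the gene's last base. The classes are defined by these ends, so the matches check the class names and do not show where fragments were cut. Of 30 matched trailers, 25 came from 1 gene, the alanine gene n-TAagc16, where 13 began at the first base after the gene and 12 at the second. The other 5 matched 3 genes and began at the first base.

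5′ fragments ended at a few fixed places. In typed families, 55.8%, 51.5% and 59.2% of counts ended on the first 2 bases of the anticodon loop, and 40.0%, 16.9% and 28.1% on the 5′ strand of the anticodon stem. Ends within the anticodon itself made up 2.34%, 1.12% and 1.44%. The glycine GCC family ended at base 1 of the loop (57.1%, 76.0% and 69.7%) and at base 3 of the stem (27.6%, 18.4% and 24.1%). The family typed valine CAC used the same places, with 55.2%, 58.1% and 57.6% at loop base 1 and 31.8%, 16.4% and 20.4% at stem base 3. In both families control heart 1 had the largest share at the stem position. The glutamate TTC family of tRF_5_245 ended at stem base 3 in 62.3%, 77.1% and 86.5% of counts. Histidine GTG ended on the stem in 77.3%, 87.2% and 86.8%, spread over several bases. In lysine CTT, 59.0%, 55.0% and 57.0% of counts ended within the anticodon.

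**Figure D3:**
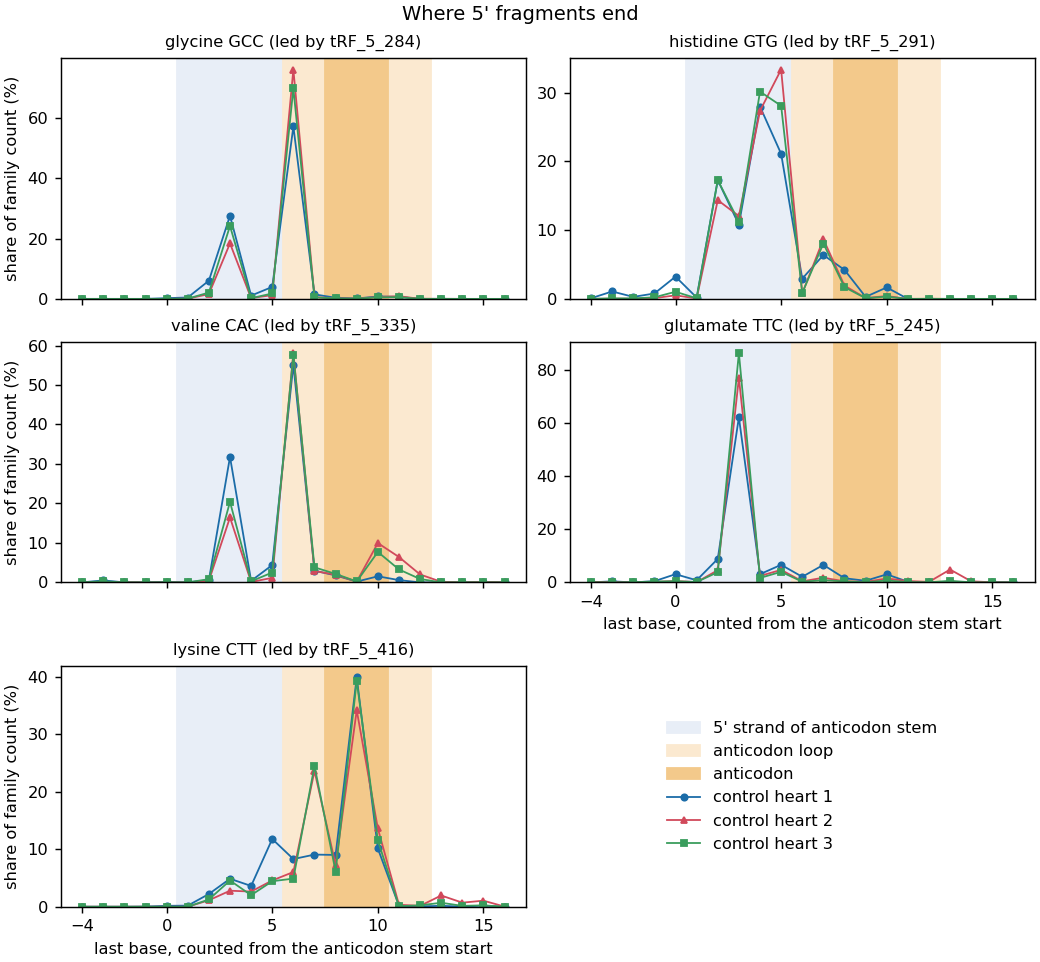
Share of each family's count (percent) by the position of the last base, counted from the start of the anticodon stem, in the 3 control hearts for families among the 6 largest. Glycine GCC and valine CAC peak at the first base of the loop and lysine CTT inside the anticodon.

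Each class had its own length spectrum. Among 5′ fragments, 31 nt held 53.6%, 50.7% and 58.1% of the class and 28 nt held 26.0%, 12.4% and 20.4%. Fragments of 15 to 23 nt were 116 of the 554 sequences and held 0.181%, 0.0283% and 0.123% of the 5′ count. CCA-ending fragments showed 2 sharp peaks, at 18 nt with 40.4%, 32.5% and 33.7% and at 22 nt with 38.2%, 36.3% and 43.2%. Lengths of 36 to 39 nt held 1.88%, 15.4% and 6.00% of CCA-ending counts. Trailers peaked at 16 nt with 28.9%, 22.3% and 25.6%. Trailers of 20 to 23 nt held 17.3%, 20.1% and 24.5%, and those of 28 to 31 nt held 13.9%, 18.3% and 9.94%.

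**Figure D4:**
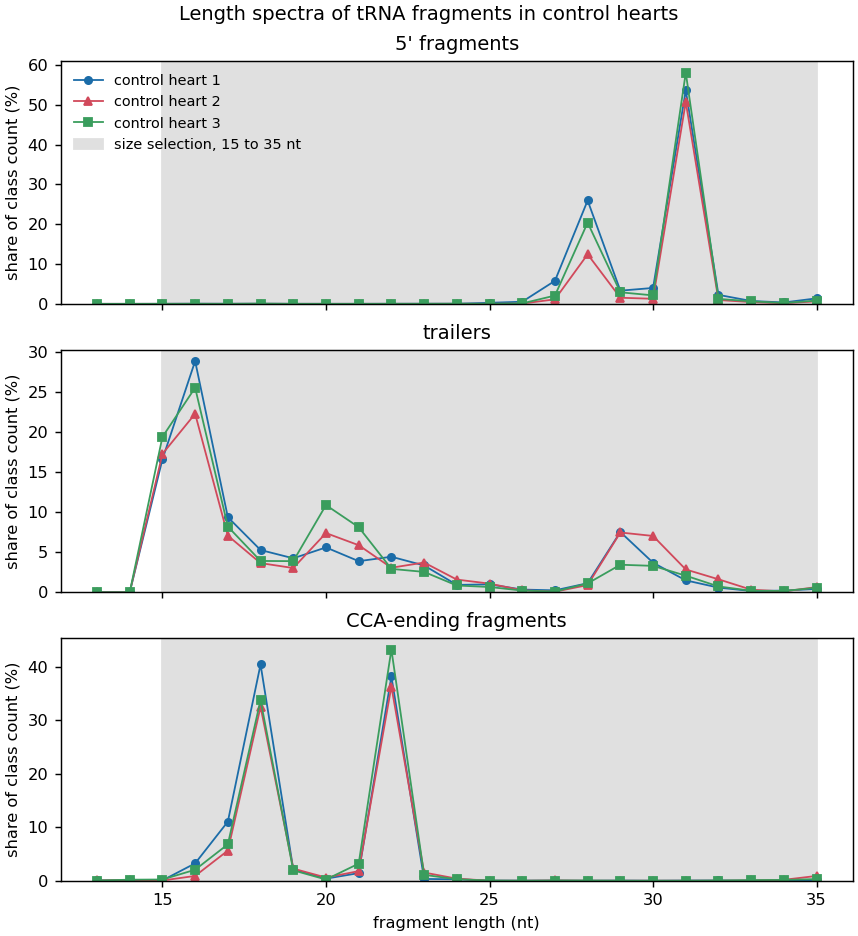
Share of the class count (percent) at fragment lengths up to 35 nt in the 3 control hearts, with the size selection of 15 to 35 nt shaded; shares are of all lengths of the class. CCA-ending fragments peak at 18 and 22 nt in each heart, and 5′ fragments at 28 and 31 nt.

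The 22-nt CCA-ending fragments shared a start. Of 52 such sequences, 42 began with tcga, which in tRNAs lies in the T loop, and these held 85.3%, 93.5% and 93.0% of the 22-nt count. Of 38 sequences of 18 nt, 14 began with atcc and held 57.0%, 58.4% and 65.8%. The balance of the forms depended on the tRNA. For a tRNA assigned to leucine, the 22-nt tRF_3_183 had 406, 210 and 220 counts and the 18-nt tRF_3_71 with the same end had 635, 149 and 192. For valine TAC, the 22-nt tRF_3_200 had 370, 53 and 49 counts and its 18-nt form tRF_3_83 had 1, 0 and 0. For the tRNA of tRF_3_97 the order was the opposite, with 469, 202 and 102 counts at 18 nt and 124, 21 and 24 at 22 nt (tRF_3_214). By assigned amino acid, leucine held 23.9%, 20.6% and 19.7% of CCA-ending counts and valine 22.3%, 8.57% and 11.1%. Glutamate held 2.57%, 15.8% and 6.15% and was highest in control heart 2, where valine was lowest. Glycine, the dominant source of 5′ fragments, held 5.74%, 5.92% and 10.6%. The type was assigned for 161 of 347 sequences, and those not assigned held 42.6%, 46.6% and 50.9%. Gene matches were not used for typing, and of 66 CCA-ending sequences that match a RefSeq gene only 26 were typed. The unassigned tRF_3_68, with 421, 119 and 173 counts, matches the leucine gene n-TLaag4. The amino acid shares can therefore be too low. Also not assigned was the 22-nt tRF_3_199, named after its values were seen. It had 117, 207 and 300 counts, or 1.68%, 8.82% and 11.4% of its class, and led the class in control heart 3.

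Trailers were led by 1 family that ended in T runs of different length. Its members tRF_1_64, tRF_1_28 and tRF_1_93 hold 4, 3 and 5 final T. tRF_1_64 had 795, 482 and 790 counts and tRF_1_28 had 523, 422 and 677, and tRF_1_93 was the lowest of the 3 in each heart. The family of 10 sequences made up 24.5%, 37.5% and 40.1% of trailers. By count, 83.2%, 84.1% and 86.4% of trailers ended in at least 3 T, and 5.91%, 6.54% and 4.63% had no final T. Next came the family of tRF_1_177, with 6.39%, 10.5% and 17.9%, and that of the 29-nt tRF_1_363, with 10.8%, 15.8% and 7.49%. The 16-nt trailers tRF_1_44 and tRF_1_42 were concentrated in control heart 1. tRF_1_44 had 509, 52 and 99 counts and tRF_1_42 had 401, 54 and 134.

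The hearts ranked the sequences alike in part. Over all 1336 sequences Spearman's rho was 0.589 for hearts 1 and 2, 0.643 for hearts 1 and 3 and 0.707 for hearts 2 and 3, and Pearson's r of log2(CPM + 1) was 0.759, 0.787 and 0.885. Sequences are not independent replicates, and many are nested in one another. For the 160 sequences with at least 10 counts in each heart, rho was 0.654, 0.699 and 0.913, so hearts 2 and 3 were the most alike pair by both coefficients over all classes together. Over all 435 trailers the order of the pairs by rho was another, at 0.529, 0.571 and 0.538. For the 30 trailers with at least 10 counts in each heart, hearts 2 and 3 were again the most alike, at 0.764, 0.739 and 0.860. Of the first 20 sequences in each heart, 13 were shared by all 3 hearts, and of the first 100, 70 were. The hearts differed by more than counting error: the chi-square per degree of freedom was 158, 64.1 and 81.7 for the 3 pairs, so no pair agreed within sampling noise.

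**Figure D5:**
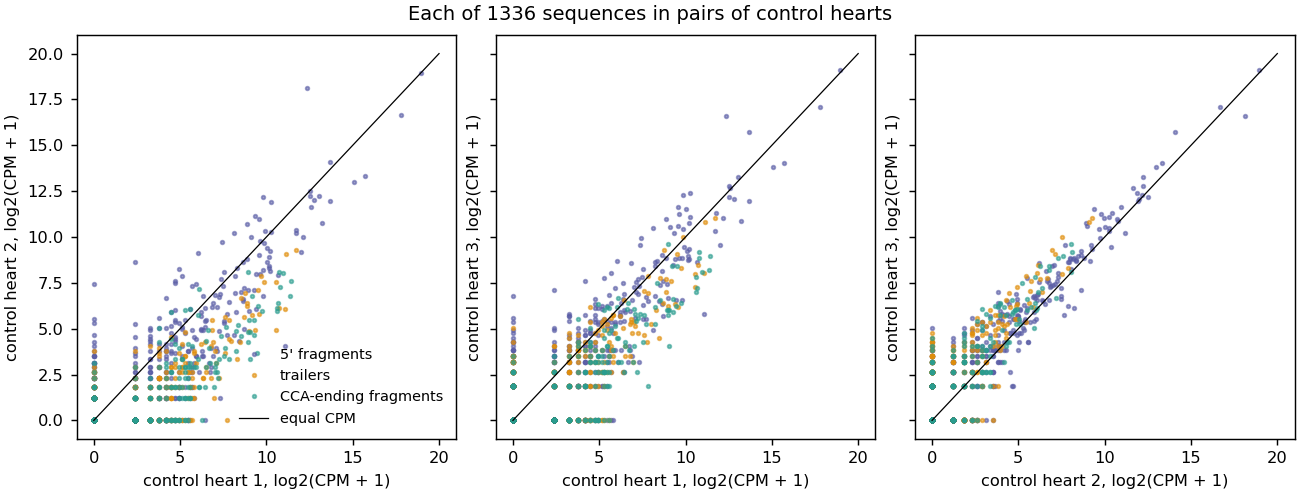
Each of the 1336 sequences in each pair of control hearts, as log2(CPM + 1) with CPM relative to the library tRF count, coloured by class. Trailers and CCA-ending fragments lie mostly below the line of equal CPM where control heart 1 is on the horizontal axis.

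The spread between hearts was set against counting error in the 70 sequences with at least 50 counts in each heart: 50 5′ fragments, 11 trailers and 9 CCA-ending fragments. Their median coefficient of variation (CV, the SD divided by the mean) was 62.3%, where counting alone gives 5.52%, and it was above counting in 69 of 70. The median was 38.1% without control heart 1. The median highest-to-lowest ratio was 3.04 for 5′ fragments, 5.41 for trailers and 9.70 for CCA-ending fragments. Among trailers and CCA-ending fragments, the largest ratios were 32.2 for tRF_1_44, 24.4 for tRF_1_42, 24.2 for tRF_3_37, 19.7 for tRF_3_182, 14.0 for tRF_3_71, 11.6 for tRF_3_68 and 9.70 for tRF_3_211. All 7 were highest in control heart 1, as were 17 of the 20 trailers and CCA-ending fragments; the other 3, tRF_3_199 among them, were highest in heart 3. Of the 50 5′ fragments, 26 were highest in heart 1, 3 in heart 2 and 21 in heart 3. The smallest ratios were 1.05 for tRF_5_285, 1.13 for tRF_5_284, 1.26 for tRF_5_435 and 1.30 for the lysine fragment tRF_5_439. Relative to the tRF total, 43 of the 70 were highest in heart 1, 3 in heart 2 and 24 in heart 3. That order depended on the scaling. With TMM scaling, which sets the bulk of sequences rather than the total as the reference, 21, 30 and 19 were highest in hearts 1, 2 and 3, and the median CV was 46.2%. The same 7 sequences were still highest in heart 1 with TMM scaling, at ratios from 2.80 for tRF_3_211 to 9.30 for tRF_1_44. The 11 sequences of 15 to 19 nt among the 70 were all highest in heart 1 relative to the total, with a median ratio of 7.64. With TMM scaling 7 of the 11 were highest in heart 1 and 4 in heart 3. RNA quality values of the hearts were not at hand, and their part in these differences was not tested.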

How the data were processed

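The authors deposited raw read counts for 1336 tRNA fragment sequences, 1 column per mouse; only the 3 control columns were used. Per the labels' protocols, total RNA was prepared with a miRNeasy kit and small RNA libraries were size-selected, with 4 technical replicates per mouse. The submitters' processing notes name DESeq2 1.16.1, Bowtie2 2.2.9 and cutadapt 1.1.4, and the build mm10. The mapping rules, the origin of the sequence set and the way the technical replicates were combined were not stated in the sources.

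Shares and CPM are relative to a library's tRF count and were averaged over hearts (Python 3.11.15, pandas 2.3.3, SciPy 1.17.1). Families share the first 15 nt, or the last 13 nt for CCA-ending fragments. The anticodon was read from an anticodon stem of 5 pairs closing a loop of 7 nt in 13 groups of 5′ fragments and from its distance to the D stem in 10; in groups with a closed hairpin, 76 of 78 readings by distance equalled the group's hairpin reading. CCA-ending fragments took the type whose first 7 bases pair with their acceptor strand, with at most 1 G-T pair, or of a longer deposited sequence that holds them. The amino acid equalled that of the matched RefSeq gene (GRCm38) for 70 of 70 5′ and 26 of 26 CCA-ending sequences. TMM factors came from edgeR 4.0.16 and size factors from DESeq2 1.42.0 (R 4.3.3). The spread and anticodon steps were tested on simulated data.

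Sequences named were the 20 with the highest mean share, the 8 highest trailers and CCA-ending fragments, the 8 largest and 4 smallest ratios among sequences with at least 50 counts per heart, and members of the 6 largest families. Members, lists and rules were chosen with earlier results of these data known. A few other sequences were named after their values were seen: proline fragments, tRF_3_83, tRF_3_199, tRF_3_214, tRF_5_283 and those of valine TAC. One abundant 5′ sequence is not reported here; it stayed in all totals and lowers the shares of the others where it is high, and rankings in the text leave it out.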

Additional observations from a re-analysis of the deposited data

How the results depend on the processing

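No paired analysis was possible because 1 group was described and no groups were compared. Values with no test were called moved when they changed by more than 1 SD between hearts, and counts or medians when they changed by more than 1.5 times. Of 43 values recomputed with all hearts, 32 stayed within these limits. With 1 heart left out a mean of 3 cannot move by 1 SD, so this limit says nothing there; 36 of 39 such values moved by less than 1.5 times. The others were all without control heart 1: trailers ran from 0.738% to 1.87%, CCA-ending fragments from 0.499% to 1.83% and the median CV from 38.1% to 77.0% over the 3 omissions. Without the leading sequence, the mean share was 94.5% for 5′ fragments, 2.83% for trailers and 2.70% for CCA-ending fragments, whose share was 0.861% with counts summed over the hearts; within 5′ fragments it was 58.1% for glycine GCC, 54.6% for 27 to 29 nt and 10.3% for 30 to 32 nt. The share of tRF_5_284 was 61.7% with only 15 to 35 nt. With at least 10 counts in each heart, trailers of 15 to 17 nt made up 57.2%, CCA-ending fragments 41.8% at 18 nt and 43.1% at 22 nt, the number of sequences was 160, and the mean rho was 0.756. Shares without the leading sequence follow from leaving it out of the total. The tRF counts limit rare sequences, and no share says how much fragment a heart held.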

Other observations

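The 3 kinds of fragment could be set side by side for tRNA valine TAC, because 2 longer deposited sequences, tRF_5_553 and tRF_5_554, hold the tRNA and its trailer in 1 piece. Both had 0 counts in each control heart. Shorter 5′ fragments of this tRNA had 15, 42 and 28 counts in hearts 1, 2 and 3. Its 22-nt CCA-ending fragment tRF_3_200 had 370, 53 and 49 counts. The trailer tRF_1_177, which begins at base 75 of the longer sequences, had 215, 144 and 382 counts, and its form tRF_1_207, longer by 1 T, had 100, 94 and 237. Trailers that begin 1 base earlier, at base 74, were rarer, with 13, 10 and 20 counts for tRF_1_199. In counts, the CCA-ending fragment was highest in heart 1 and both trailers that begin at base 75 in heart 3. The 5′ fragments were highest in heart 2 in counts, where the tRF count was largest. As a share of the 5′ count they were lowest there, at 0.00676%, 0.00547% and 0.00753% in hearts 1, 2 and 3.

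A glycine CCC fragment, tRF_5_283, differs from tRF_5_284 by G15A and had 93, 303 and 196 counts, which is 0.0793%, 0.0789% and 0.0923% of tRF_5_284.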
